A study of Mus musculus with 4 samples.

Results

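Heat shock proteins are molecular chaperones, which help other proteins to fold and hold or refold those that are damaged. The members described here are the 10 genes Hspa1a, Hspa1b, Hspa8, Hsp90aa1, Hsp90ab1, Dnajb1, Dnaja1, Hsph1, Hspd1 and Hspe1, taken by name, with all probe sets that the platform annotation assigns to exactly 1 of them. A probe set is a group of short array probes read as 1 signal. Such probe sets were found for 9 of the 10 genes, 23 in all, out of 18194 genes with at least 1 probe set of a single symbol. Hsp90ab1 was not analysed here. The set is labelled cytosolic, but the products of Hspd1 and Hspe1 are the chaperonin and co-chaperonin of the mitochondrial matrix, so it is called the heat shock protein set below.

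The samples were gamma delta intraepithelial lymphocytes, T cells that live within the gut lining, sorted from the colon of conventionally raised C57b/6 mice. The untreated group had 2 samples. The DSS group had 2 samples from mice given 2% dextran sulfate sodium, a polymer that injures the colonic epithelium, over 5 days, followed by 3 days on normal water. Each sample was read on 1 array in 1 colour, and the mice shared strain and housing across the groups. The sources used here do not give the age or number of mice, or say whether replicates came from separate animals or pools. The p-values therefore weigh the difference between the groups against how far replicate arrays spread, and that spread may be technical.

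In the heat shock response, a rise in misfolded protein frees heat shock factors, which bind heat shock elements in promoters and raise transcription of the inducible chaperones. Hspa1a and Hspa1b encode near-identical copies of the inducible HSP70, and Dnajb1 encodes an inducible HSP40 that stimulates the ATPase of HSP70. Hspa8 encodes HSC70 and Hsp90ab1 encodes HSP90 beta, the forms that cells make without stress.

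The promoters of the members are shown first because the members differ in matches to the letters of heat shock elements near their start sites. RefSeq promoter windows of 300 bases in GRCm38.p6, covering 250 bases before and 50 after a start, were matched for 7 of the 10 members (12 windows). Hspa8, Hsp90aa1 and Hsp90ab1 had no window here, so promoters of inducible and constitutive genes were not compared. A minimal element was searched as GAANNTTC or TTCNNGAA, each of which is its own reverse complement and so reads the same on both strands. These letters were found in 7 of the 12 windows and in 15.1% of all 32851 windows. An extended element with a further alternating unit, which overlaps the shorter motif by construction, was found in 4 of the 12 and in 0.603% of all windows. The 12 windows overlap and make up 8 separate stretches of DNA, of which 5 hold the minimal and 2 the extended element, so the shares of windows are not counts of separate promoters. A match is a run of letters and was not tested as a binding site.

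The stretches below show the matches of 6 members in capitals. For Hspa1a and Hspa1b 100 bases upstream of the start are given, since this inducible pair had the 3 largest differences of the set, and for the others 30 bases around a match. They lie at chr17:34972177-34972276 (minus strand), chr17:34959259-34959358 (minus), chr4:40722333-40722362 (plus), chr5:149636287-149636316 (minus), and, for Hspd1 and Hspe1, chr1:55088053-55088082 on the minus and plus strands.
Hspa1a: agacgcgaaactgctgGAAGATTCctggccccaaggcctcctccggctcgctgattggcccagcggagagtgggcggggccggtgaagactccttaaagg
Hspa1b: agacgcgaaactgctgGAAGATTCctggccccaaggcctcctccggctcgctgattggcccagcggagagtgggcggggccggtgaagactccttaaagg
Dnaja1: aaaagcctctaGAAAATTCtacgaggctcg
Hsph1: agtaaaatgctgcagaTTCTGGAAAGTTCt
Hspd1: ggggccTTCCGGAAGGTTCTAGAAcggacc
Hspe1: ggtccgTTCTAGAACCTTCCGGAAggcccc

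The Hspa1a and Hspa1b windows differed at 4 of 300 bases, none of them in the stretch shown, and in both the match began 104 bases before the start. Hspd1 and Hspe1 are neighbours transcribed in opposite directions on chromosome 1, and their stretches are the same DNA read on either strand. The match shown for Hsph1 lies after the start in both of its windows, which also hold 1 match before the start. Neither Dnajb1 window held these letters, which says nothing of factor binding there.

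The deposited values are linear intensities on a scale common to the 4 arrays. Each array's median signal was 193.8 and 213.9 in the untreated samples against 157.1 and 163.3 in the DSS samples. Control transcripts added at hybridisation averaged 4.77-fold more signal on the untreated arrays, so a difference in handling of the arrays cannot be told apart from the treatment. The 3'-to-5' signal ratio is a sign of RNA integrity, but the RNA was amplified before labelling, so it is not read as integrity alone. That of Gapdh was 9.09 and 9.52 untreated against 8.92 and 7.80 after DSS. That of Actb was 14.7 and 23.0 untreated against 15.97 and 10.6 after DSS, lowest on DSS replicate 2, and its part in the results was not tested. All 13 gamma delta lymphocyte markers with a probe set exceeded the array median on all 4 arrays, Cd3d, Cd3e and Cd3g among them. The genes of the gamma delta receptor itself were not analysed here, so these markers are not a check of the sorted lineage.

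The inducible HSP70 genes had the 3 largest differences of the set. On all 4 of their probe sets, both DSS arrays lay above both untreated arrays, as on 17.5% of all 20233 probe sets tested, which are those above their array's median on at least 2 arrays. None passed the test, a limma p adjusted over all probe sets under 0.05, which also called 0% of all. Hspa1a had signals of 733 and 454 in the untreated samples against 2196 and 8452 in the DSS samples, on a single probe set. The groups did not overlap, and the second DSS array was the highest. On the log2(signal + 32) scale, on which all differences below are given as DSS minus untreated, Hspa1a differed by 2.83 ± 0.66 (SE, n = 2 per group), a fold of 7.13 (limma, adjusted p = 0.637). The size depended on the DSS arrays, since the difference was 1.87 without DSS replicate 2 and 3.80 without DSS replicate 1.

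Hspa1b was read on 3 probe sets. Its plain probe set, 1427126_at, had 300.3 and 673 untreated against 2059 and 4379 after DSS, a difference of 2.65 ± 0.55. Another, 1427127_x_at, had 442 and 1050.3 in the untreated samples against 3930 and 8400 in the DSS samples, a difference of 3.01 ± 0.56. On the brightest, 1452318_a_at, signals were 2867 and 8296 untreated against 13184 and 28615 after DSS, a difference of 1.99 ± 0.61. All of these had the same order of arrays, with untreated replicate 1 lowest and DSS replicate 2 highest. Their limma adjusted p ranged from 0.488 for 1427127_x_at to 0.676 for 1452318_a_at. Hspa1a and Hspa1b are near-identical in sequence, so their probe sets may read both transcripts, and the 4 values are not independent.

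**Figure D1:**
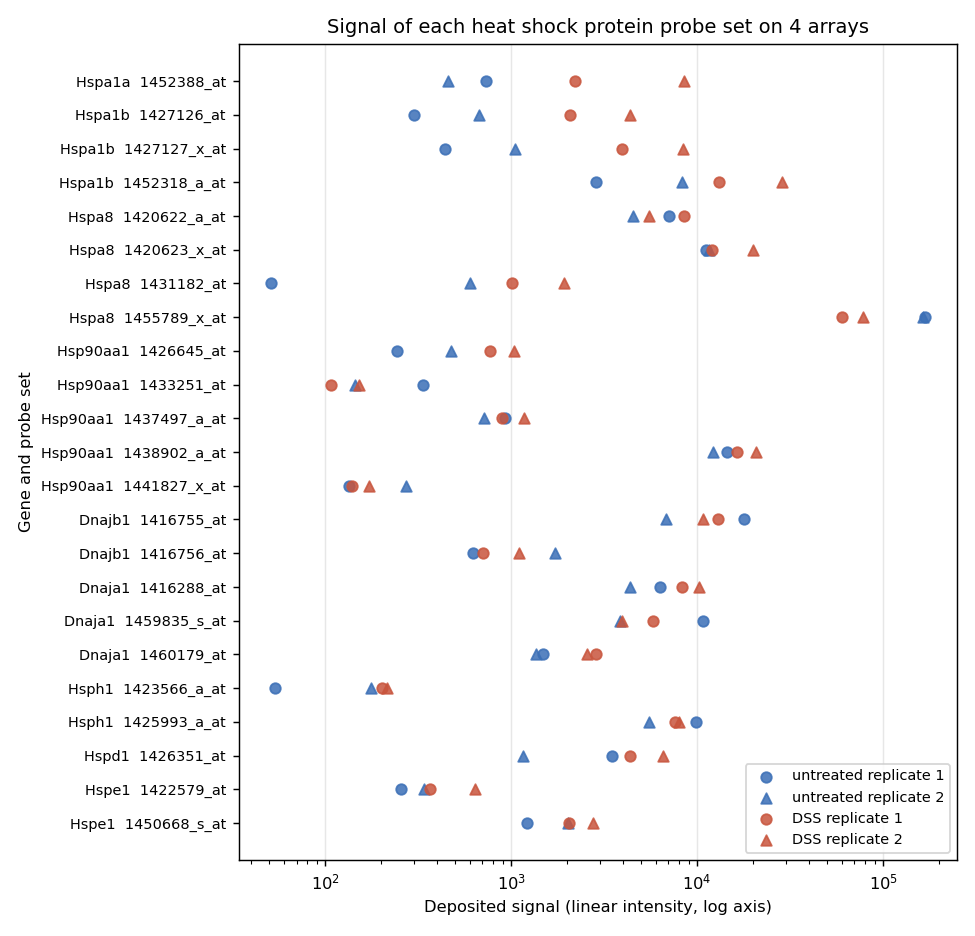
Deposited signal (linear intensity on a log axis) of the 23 probe sets, with 1 point per array, coloured by group and shaped by replicate. The 4 probe sets of Hspa1a and Hspa1b have both DSS points to the right of both untreated points, and Hspa8 on 1455789_x_at has both DSS points to the left.

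Hspa8, the constitutive HSP70, differed between its 4 probe sets, with 2 higher, 1 lower and 1 overlapping. On the brightest, 1455789_x_at, signals were 167622 and 163119 in the untreated samples against 60255 and 78197 in the DSS samples, a difference of -1.27 ± 0.38 (limma, adjusted p = 0.676). This was the only probe set of the 23 that was lower on both DSS arrays, against 23.1% of all tested. It lies among the 202 brightest probe sets, 1% of those tested, of which 98 were lower and 8 higher on both DSS arrays, with a median difference of -0.40. After quantile normalization its groups overlapped and the difference was 0.09.

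The other Hspa8 probe sets were higher or overlapping. On 1420623_x_at signals were 11133 and 11535 untreated against 12089 and 20024 after DSS, a difference of 0.46 ± 0.40. On 1420622_a_at they were 7071 and 4529 in the untreated samples against 8521 and 5501 in the DSS samples, so the groups overlapped, with a difference of 0.27 ± 0.43. On 1431182_at they were 51.2 and 602 untreated against 1014 and 1913 after DSS, a difference of 2.63 ± 0.91. On the last, the untreated arrays were 2.93 apart on the log2 scale, and replicate 1 lay below its array's median of 193.8. No direction can be given for Hspa8 as a gene.

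Dnajb1, the inducible HSP40, did not separate the groups on either probe set. On 1416755_at signals were 17826 and 6796 in the untreated samples against 12868 and 10709 in the DSS samples, with both DSS arrays between the untreated ones. On 1416756_at they were 620 and 1715 untreated against 708 and 1099.7 after DSS, again between them. The differences were 0.09 ± 0.52 and -0.22 ± 0.56 (limma, adjusted p = 0.966 and 0.922). The untreated arrays differed from each other by 1.39 and 1.42 on the log2 scale, more than either difference between the groups.

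The comparison of inducible with constitutive genes therefore set Hspa1a, Hspa1b and Dnajb1 against Hspa8 alone. Within each array, the mean log2 value of the 3 inducible genes, each on its brightest probe set, was taken relative to that of Hspa8. The level of this index has no meaning across probe sets, and only its change between arrays was read. It was -5.62 and -5.75 untreated against -3.06 and -2.51 after DSS, so it was higher by 2.90 on the DSS arrays, with the groups apart. Of this, 1.64 was the change of the inducible mean and the rest that of Hspa8 on 1455789_x_at. No p is given for an index over chosen genes with 2 arrays a group.

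The index depended on which Hspa8 probe set was subtracted. It was higher in DSS samples by 1.36 against 1420622_a_at and by 1.18 against 1420623_x_at, and against 1431182_at it differed by -0.998 with the groups overlapping. With quantile-normalized signals on the brightest probe sets it was 1.53. The inducible genes also differed among themselves: Hspa1a and Hspa1b taken relative to Dnajb1 were at -3.58 and -1.76 untreated against -1.25 and 0.54 after DSS, a change of 2.32. Dnajb1 alone relative to Hspa8 changed by 1.36, while Dnajb1 itself differed by 0.09.

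**Figure D2:**
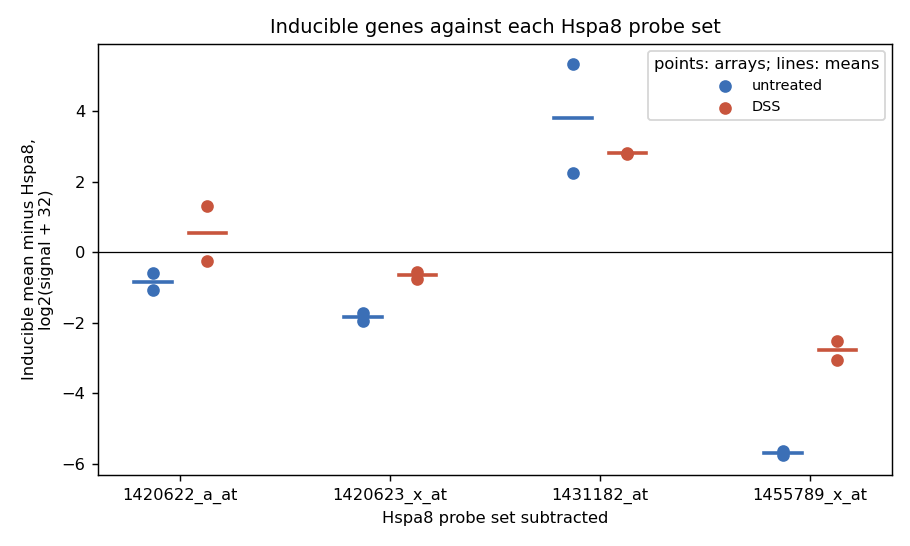
Mean log2(signal + 32) of Hspa1a, Hspa1b and Dnajb1 minus that of Hspa8, by the Hspa8 probe set subtracted; points are arrays and lines are group means. The DSS arrays lie above the untreated arrays for 1420622_a_at, 1420623_x_at and 1455789_x_at, and between them for 1431182_at; heights are not comparable between probe sets.

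Dnaja1, a constitutive HSP40 partner of HSC70, was higher on both DSS arrays on 2 of 3 probe sets. On 1416288_at signals were 6275 and 4358 in the untreated samples against 8295 and 10284 in the DSS samples, a difference of 0.82 ± 0.39. On 1460179_at they were 1488 and 1363 untreated against 2871 and 2569 after DSS, a difference of 0.92 ± 0.37 (limma, adjusted p = 0.677 and 0.676). The replicates lay close together on this second probe set, 0.12 apart in untreated and 0.16 apart in DSS samples. The remaining probe set, 1459835_s_at, had 10779 and 3850 in the untreated samples against 5790 and 3930 in the DSS samples, so the groups overlapped and the difference was -0.43 ± 0.55.

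Hsph1 encodes HSP110, which exchanges the nucleotide of HSP70. Its bright probe set, 1425993_a_at, had 9862 and 5497 untreated against 7641 and 7942 after DSS, a difference of 0.08 ± 0.42 with the DSS arrays between the untreated ones. Its dim probe set, 1423566_a_at, had 53.5 and 175.9 in the untreated samples against 202 and 213 in the DSS samples, a difference of 0.85 ± 0.81. The dim one exceeded the array median only on the DSS arrays, and so entered the test through that group.

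Hsp90aa1 encodes HSP90 alpha, the more stress-responsive cytosolic HSP90, and had 5 probe sets. On the brightest, 1438902_a_at, signals were 14414 and 12179 untreated against 16333 and 20620 after DSS, a difference of 0.47 ± 0.37 with the groups apart. On 1426645_at they were 242 and 474 in the untreated samples against 767 and 1032 in the DSS samples, a difference of 1.31 ± 0.48 (limma, adjusted p = 0.676). The groups were also apart there, in the same order. On 1437497_a_at, 1441827_x_at and 1433251_at the groups overlapped, with differences of 0.32, -0.26 and -0.67, and the last was too dim to be tested.

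The mitochondrial chaperonin genes were higher on both DSS arrays on all 3 of their probe sets, as were 17.5% of all probe sets tested. Hspd1, encoding HSP60, had 3504 and 1160 untreated against 4333 and 6519 after DSS, a difference of 1.38 ± 0.57 (limma, adjusted p = 0.676). Its untreated arrays were 1.57 apart on the log2 scale, more than the difference between the groups. Hspe1, encoding HSP10, had 1219 and 2018 in the untreated samples against 2048 and 2750 in the DSS samples on 1450668_s_at, a difference of 0.59 ± 0.43. On 1422579_at it had 255 and 341 untreated against 365 and 638 after DSS, a difference of 0.66 ± 0.49. The gap between the groups was small on both: the higher untreated array and the lower DSS array had 2018 and 2048 on the first and 341 and 365 on the second. After quantile normalization the groups overlapped on 1450668_s_at, with a difference of 0.48.

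**Figure D3:**
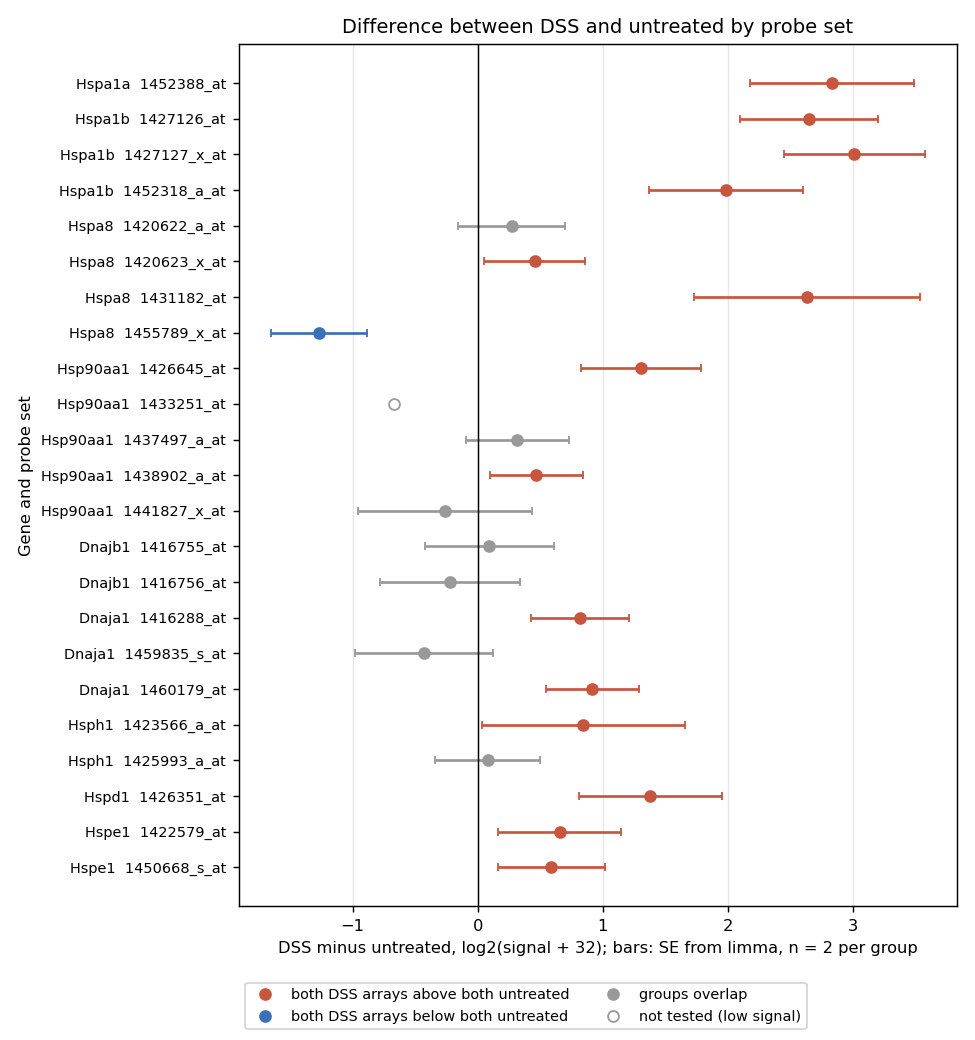
Difference of DSS minus untreated in log2(signal + 32) for each probe set, with the SE from limma (n = 2 per group); colour shows whether the groups overlap, and the open point was not tested. The 4 probe sets of Hspa1a and Hspa1b lie between 1.99 and 3.01, and Hspa8 on 1455789_x_at at -1.27 is the only one with both DSS arrays below both untreated arrays.

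Over the whole set, 14 of 23 probe sets were higher on both DSS arrays, 1 was lower and 8 overlapped. Of the 22 tested, 14 were higher, 1 was lower and 7 overlapped. The 14 include the dim Hsph1 probe set, which entered the test through the DSS arrays alone. Among all those tested, 17.5% were higher and 23.1% lower. Read by the brightest probe set of each gene, 6 of 9 members were higher, against 17.2% of 12425 genes, and 1 was lower, against 23.8%. By the stricter rule that both DSS arrays lie at least 2-fold above both untreated arrays, 3 probe sets counted, those of Hspa1a and the plain and _x_at ones of Hspa1b, against 2.55% of all. The DSS replicates also differed from each other: 18 of the 22 tested were higher on replicate 2 than on replicate 1, against 49.96% of all tested. The cause was not tested. Several probe sets read the same gene, so these counts do not stand for as many separate observations. Without DSS replicate 2, the array with the highest Hspa1a and Hspa1b signals, 15 of the 23 probe sets had a higher DSS signal than both untreated arrays, against 26.0% of all tested.

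No member passed the test. Limma called 0% of 20233 probe sets and 0% of 12425 genes at an adjusted p under 0.05, and the smallest adjusted p of a member was 0.488. At an unadjusted limma p under 0.05 there were 1448 of all 20233 probe sets, in either direction. Of the members' 22 tested, 8 were higher, among them all those of Hspa1a and Hspa1b, and 1 was lower. The calls depended on the untreated arrays. Without untreated replicate 1 limma called 14.4% of genes, among them Hspa1a (3.16), Hspa1b (1.22), Hspd1 (2.17) and Dnaja1 (1.08) as higher and Hspa8 on 1455789_x_at (-1.25) as lower. Without untreated replicate 2 it called 6.05%, among them Hspa1a (2.51) and Hspa1b (2.75) as higher and Hspa8 on that probe set (-1.29) as lower, while Hspd1 (0.60) and Dnaja1 (0.56) were not called. In both fits the lone untreated array is assumed to vary as the DSS arrays do. Scaling all arrays to a common median added 0.32 to the median difference of all genes, taking it from -0.07 to 0.25, and 15 of the 23 probe sets were then higher and 1 lower. After quantile normalization that median was 0.01, and 13 were higher and 0 lower. The share of all probe sets higher or lower was not computed under either scaling, so these counts have no background beside them.

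Other genes of the chaperone system differed in both directions. Of 80 such genes listed by function, 70 were tested and 0 passed, with 14 higher and 14 lower on both DSS arrays, 20.0% each, against 17.2% and 23.8% of all genes. Their median difference was 0.07, against -0.07 for all genes and 0.59 for the 9 members. Differences of these genes are given on the brightest probe set of each, with a limma adjusted p of 0.627 or more.

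Among heat shock factors and their binding protein, 0 of 4 were higher and 2 were lower on both DSS arrays. Hsf4 had 343 and 466 in the untreated samples against 178 and 227 in the DSS samples, and Hsf2, a factor active in development and with stress, had 363 and 320 against 217 and 292. Both were dim, near the array medians. Hsf1, the main stress-responsive factor, was not analysed here. Of 5 other HSP70 relatives, all overlapped on their brightest probe sets, including the HSP110 family member Hspa4 (0.42 ± 0.54). Among the other tested probe sets of Hspa4, 1435194_at overlapped at -0.03 and the dimmer 1440575_at was lower on both DSS arrays at -1.42.

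Of 11 other J proteins, the partners that load substrates onto HSP70, 3 were higher and 3 lower. Dnaja2, a relative of Dnaja1, had 1833 and 1123 untreated against 3797 and 3624 after DSS, a difference of 1.35 ± 0.41, while 2 of its other 3 probe sets overlapped. Dnajb5 had 934 and 864 in the untreated samples against 243 and 57.3 in the DSS samples, a difference of -2.57 ± 0.62, while its other tested probe set, 1450436_s_at, overlapped at -0.38. Of 9 HSP70 co-chaperones, 3 were higher and 1 lower. St13, encoding the HSC70-interacting protein Hip, had 1410 and 3108 untreated against 4384 and 4925 after DSS (1.14 ± 0.47), and Bag5, a nucleotide exchange factor, differed by 1.64 ± 0.68 at signals of 418 or less, with its other probe set lower. Bag5 exceeded the array median on the DSS arrays alone, and without it 2 of 8 were higher.

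Of 12 HSP90 co-chaperones, 2 were higher and 1 was lower, with a median of -0.03. The immunophilins Fkbp5 (0.50 ± 0.40) and Fkbp4 (0.53 ± 0.46) were higher on their brightest probe sets and lower on both DSS arrays on another, 1448231_at for Fkbp5 and 1416363_at for Fkbp4. Of 5 small heat shock proteins, which hold unfolded proteins without ATP, 0 were higher and 3 lower, among them the muscle-expressed Hspb2 (-1.26 ± 0.49) and Hspb7 (-1.81 ± 0.83), both at signals under 449. Hspb7 exceeded the array median on the untreated arrays alone, and its other tested probe set overlapped at -0.32. Of 14 subunits of the cytosolic chaperonin CCT and of prefoldin, 4 were higher and 1 lower, with a median of 0.50. Cct8 differed by 1.51 ± 0.55 and Cct5 by 0.99 ± 0.40, the latter with 10892 and 7363 in the untreated samples against 15088 and 21134 in the DSS samples. Of 10 other mitochondrial chaperones and proteases, 2 were higher and 3 lower, with Grpel1, the nucleotide exchange factor of mitochondrial HSP70, at 0.89 ± 0.41 and the mitochondrial HSP90 Trap1 at -0.57 ± 0.39.

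Immediate early genes and macrophage markers were mostly higher in the same DSS samples, although none passed the test in limma. Among all 12425 genes tested, 17.2% were higher and 23.8% lower on both DSS arrays. Of 22 immediate early genes, which respond within minutes to stimuli including tissue dissociation, 13 were higher and 2 lower on both DSS arrays, with a median difference of 1.00. Their summed signal was 45323 and 33264 untreated against 60853 and 66524 after DSS. Fos had 5386 and 931 in the untreated samples against 14755 and 16634 in the DSS samples, a difference of 2.78 ± 0.76. Of 20 macrophage and dendritic cell markers tested, 17 were higher and 1 lower, with a median of 2.02, and the summed signal of the 24 on the array was 40346 and 40266 untreated against 108927 and 140999 after DSS. Lyz2, the macrophage lysozyme, differed by 5.00 ± 0.73, and the scavenger receptor Cd163 was below the array median on all 4 arrays. Of the macrophage markers 2, C1qc and Mrc1, exceeded the array median on the DSS arrays alone, and the other 18 had 15 higher, 1 lower and a median of 1.79. Of the immediate early genes this held for 1, Fosb, and the other 21 had 12 higher, 2 lower and a median of 0.99.

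Markers of the other cell types had smaller median differences. The shares of all genes beside the counts below are again 17.2% higher and 23.8% lower. Of 13 gamma delta lymphocyte markers 4 were higher and 4 lower, with a median of -0.17. Their summed signal was 644874.5 and 546279 untreated against 348502 and 355102 after DSS. Much of that sum came from very bright probe sets such as that of Ccl5, with 166892 and 171899 untreated against 55884.5 and 65842 after DSS. Of the 202 brightest probe sets of any gene, 98 were lower and 8 higher on both DSS arrays. The sum is therefore not read as a number of cells. Among the 4 gamma delta markers that were lower, Ccl5 differed by -1.48 ± 0.34 and Itgae by -1.20 ± 0.33 on its brightest probe set. The other Itgae probe set, 1449216_at, was higher on both DSS arrays (0.52). Of 4 alpha beta T cell markers 0 were higher and 1, Cd8b1 (-2.35 ± 0.47), was lower. Cd8b1 exceeded the array median on the untreated arrays alone. Epithelial markers had 2 of 13 higher and 3 lower (median -0.08), neutrophil markers 2 of 9 higher and 2 lower (0.19), and the 4 fibroblast and endothelial markers all overlapped (0.02). Of the neutrophil markers, 3 exceeded the array median in 1 group alone, and the other 6 had 1 higher and 0 lower. The part of the macrophage and immediate early genes in the heat shock protein differences was not tested. In bulk samples, more or fewer cells of a type and more or less RNA per cell cannot be told apart.

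**Figure D4:**
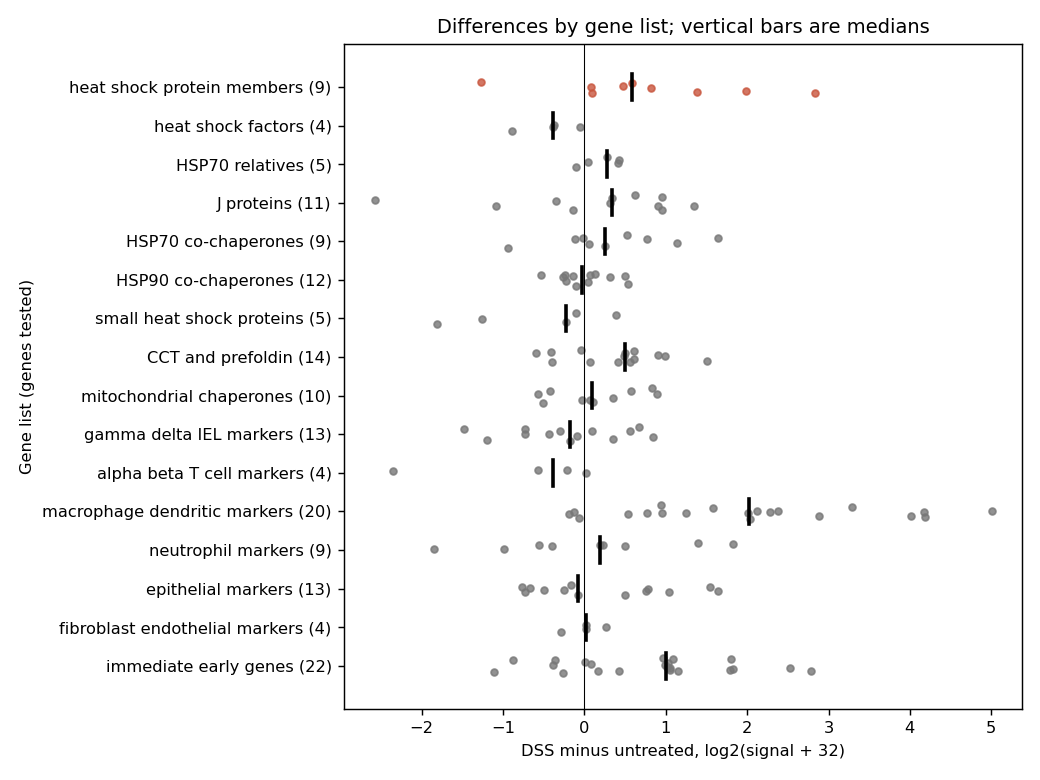
Difference of DSS minus untreated in log2(signal + 32) for each tested gene of the heat shock protein set and of the other lists, with the number of genes in brackets and a bar at the median. The medians are 0.59 for the members, 1.00 for immediate early genes and 2.02 for macrophage and dendritic markers, and those of the other chaperone lists lie between -0.38 and 0.50.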

How the data were processed

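Per the labels' protocols, RNA was isolated (PicoPure), amplified (RiboAmp HS) and biotin-labelled before hybridisation. The deposited values are 1 linear intensity per probe set and array, for 45101 probe sets, and the submitters' processing notes name GCOS, with settings not given in the sources used here. Each array's mean without the lowest and highest 2% of values was 500.0, so the authors' intensities had been scaled. No detection calls were used. Precision is limited by the number of arrays. The platform table gave 1 symbol to 34958 probe sets, several to 932 and none to 9211.

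Signals were taken as log2(signal + 32) without further normalization. A probe set with 1 symbol was tested if it exceeded its array's median on at least 2 arrays. DSS was compared with untreated across all genes (brightest probe set each) and across all probe sets in R 4.3.3 with limma 3.58.1 (lmFit, eBayes with an intensity trend, Benjamini-Hochberg at 0.05). Members' errors and p-values come from the probe set fit; leave-out values and other genes come from the gene fit. The fit was tested on simulated data. Probe sets ending in _x_at, _s_at or _a_at can bind several transcripts.

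The members and lists were chosen with earlier results of these data known. Named genes are all members, and at most the 2 of each list with the smallest limma p; Hsf1, Cd3d, Cd3e, Cd3g, Cd163, C1qc, Mrc1 and Fosb were named besides, after their values were seen. Alternatives changed the pseudocount, the scaling, the filter, the choice of probe set, the variance trend or the threshold, added a replicate block, or left out each array.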

Additional observations from a re-analysis of the deposited data

How the results depend on the processing

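The number of genes called by limma, 0, was 1 with signals above the median on all 4 arrays, 3 with probe sets averaged, 4 at an adjusted p under 0.10, and 0 to 1785 with 1 array left out. The number of probe sets called, 0, was 1 under that filter and 0 to 2470 with 1 array left out. No member was among the calls except when an untreated array was left out or with the replicate block. The replicate numbers are not taken as pairing, since deviations of same-numbered arrays correlated at 0.06; with the replicate block 67 genes and 49 probe sets were called, Hspa1a and Hspa1b among the genes. The inducible minus Hspa8 index, 2.90, was 1.53 after quantile normalization, 1.25 with probe sets averaged, -0.78 on the brightest plain probe sets, and 2.63 to 3.18 with 1 array left out. Alternatives chosen after seeing the data gave 1.36, 1.18 and -0.998 with the other Hspa8 probe sets and 3.68 without Dnajb1. They also gave 13 to 19 member probe sets higher in DSS samples, where 14 were, with 1 array left out or under other scalings. Without untreated replicate 1 or 2, 19 and 16 were higher, against 35.5% and 37.4% of all tested probe sets. Without DSS replicate 1 or 2, 15 were higher in each case, against 25.8% and 26.0%. No such share was computed for the other scalings. Hspa8 reversed to 0.087 after quantile normalization, 0.52 with probe sets averaged and 2.63 on its plain probe set. Dnajb1 reversed to -0.065 with probe sets averaged, and to -0.60 without untreated replicate 2 and -0.04 without DSS replicate 1 in a range of -0.60 to 0.79 with 1 array left out. Hsph1 reversed to -0.042 after quantile normalization, and to -0.34 without untreated replicate 2 in a range of -0.34 to 0.50. The causes were not tested. Dim signals and 2 arrays a group limit what could be seen.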
